A study of Mus musculus with 2 samples.

Results

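The genes described here encode the proteins that remove introns from pre-mRNA and coat it before splicing: SR proteins, hnRNP proteins, proteins of the small nuclear ribonucleoproteins (snRNPs), the SF3A and SF3B complexes, PRP splicing factors and LSm ring proteins. They were chosen by the gene name on the array (Sfrs, Hnrp or Hnrnp, Snrp, Sf3a or Sf3b, Prpf and Lsm, each followed by its number or letter). The rule found 166 of 41174 probes, from 83 of the 27745 gene and transcript names on the array. RNA came from G1E-ER-GATA-1, a mouse erythroid line. The line stems from embryonic stem (ES) cells that lack GATA-1, the transcription factor that drives red cell maturation, and carries a GATA-1 fused to the oestrogen receptor's ligand-binding domain. One group received control siRNA and the other ETO2 siRNA, directed at the gene Cbfa2t3 for ETO2, a corepressor found in GATA-1 complexes; both groups were then given β-estradiol for 24 h, so that GATA-1 was switched on in both. Each of 2 Agilent arrays, labelled as replicates, compared ETO2 siRNA RNA in Cy3 (green) with control siRNA RNA in Cy5 (red). The labels do not say whether the arrays came from separate cultures, so the p-values measure only the spread between these arrays, which may be technical. The dyes were not swapped, so an effect of the dye on a probe and an effect of the siRNA cannot be told apart. One cell line, transfected as a bulk culture, stands behind all values, and fewer cells of a kind and less RNA per cell cannot be told apart in it.

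Introns are removed by the spliceosome, which is built on each intron from the U1, U2, U4, U5 and U6 snRNPs. U1 reads the start of the intron and U2, with SF3A and SF3B, its branch point; the U4, U5 and U6 particle then joins, and PRP factors rearrange the whole into its active form. A ring of Sm proteins sits on most of these snRNAs and a ring of LSm proteins on U6. SR proteins mostly promote the use of nearby exons and hnRNP proteins often oppose it, so the balance between them helps to set which exons are kept. In maturing red cells many transcripts change their exon use and their retained introns late in differentiation.

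A probe on these arrays is a DNA strand of 60 bases, and many member genes had several. The first 30 bases of selected probes are given 5′ to 3′ in the order of the array file, because the results below turn on which stretch of a transcript was read. All letters are in lower case where no part is singled out. The sets are the only unsaturated probe of Hnrnph1, the gene with the lowest ratio, the unsaturated probes of Hnrnpk, Prpf31 and Prpf4, which moved in opposite directions, and the probes of Lsm6, which all moved together.
Hnrnph1: aattcctagcctttctctagttactgtagg
Hnrnpk, brighter probe: aagatgtaccatttctctgttgtgtgttga
Hnrnpk, dimmer probe: ctttaaaagatctagaaatactgatgagat
Prpf31, brighter probe: gcagaaaggtcttcctcacactcagctttt
Prpf31, dimmer probe: gggacagcaagatgtttgctgagatcatga
Prpf4, brighter probe: gtacagcctccttcctgttggttatttaaa
Prpf4, dimmer probe: tgagcctatccatggggacttcttgctcac
Lsm6, probe 1 (brightest): aggaggcactgctcttcagagatggataga
Lsm6, probe 2: atgcgttcatccgaggaaacaatgtgctgt
Lsm6, probe 3: attgttttcatccatggaaccgcttttaat
Lsm6, probe 4 (dimmest): taactcaggaaagagaggagtaaggtttga

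Log2 ratios are ETO2 siRNA over control siRNA, after background correction and a loess curve that removes the trend of the ratio with brightness on each array. A probe was kept when its signal was well above background in the same channel on both arrays. Of the 166 probes, 161 were kept, 10 of these were saturated in the control channel on at least 1 array, and 151 unsaturated probes from 80 genes carry the counts. The dimmest probe kept was one of Sf3b5, with a mean log2 signal of 6.34 and a log2 ratio of -0.046, and the brightest probe left out was one of Sf3b4, at 6.06 with a log2 ratio of 0.054. Cbfa2t3, the target, had signals of 9952 and 10080 units after control siRNA and 7598 and 7341 after ETO2 siRNA. Both ETO2 siRNA signals lay below both control signals, at 74.6% of control (log2 ratio -0.42 ± 0.05, SD, n = 2; limma adjusted p = 0.000100), and a second probe stood at 85.6% (adjusted p = 0.0105). All 12 erythroid markers were well above background, while 4 of 8 ES cell markers were, with a summed signal of 620 to 705 units in the 4 channels and 1 of these 4 lower. Among the 10 unsaturated erythroid markers 9 rose and 1 fell, and their summed signal went from 119376 and 122463 units after control siRNA to 194505 and 206566 after ETO2 siRNA. Megakaryocyte markers summed to 8371 and 10312 units after control siRNA and to 12538 and 15166 after ETO2 siRNA, with 2 of 5 past the threshold. Mast cell and granulocyte markers (6 of 9 above background, 2 lower) summed to 988 and 990 units after control siRNA and 682 and 698 after ETO2 siRNA. Lymphocyte and macrophage markers (6 of 7 above background, 2 lower) summed to 926 and 996 units after control siRNA and 847 and 888 after ETO2 siRNA. Of the fibroblast and endothelial markers 2 of 7 were above background, with neither past the threshold. The part of these marker differences in the splicing genes' ratios was not tested.

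Splicing genes moved in both directions after ETO2 siRNA, by small amounts. Of the 151 probes, 32 (21.2%) were higher and 30 (19.9%) lower at a limma adjusted p below 0.05, where 17.8% of all 23994 unsaturated probes were higher and 20.8% lower. The members' shares thus stood near those of the whole array, and their median log2 ratio of 0.0093 stood beside -0.012 for all probes. Ratios ran from -0.64 to 0.57. Of the 62 probes past the threshold, 30 differed by under 1.2-fold, 30 by 1.2-fold to 1.5-fold and 2 by more; these 2 were probes of Hnrnph1 and Hnrnpk, both lower. Over all probes 2.45% passed 1.5-fold. Without adjustment 72 member probes (47.7%) had p below 0.05, against 46.9% of all probes. The ratio had the same sign on both arrays in 116 member probes (76.8%), against 78.7% of all probes. Across the 151 probes the ratios of the 2 arrays correlated with Pearson's r = 0.80 and Spearman's rho = 0.76; these points share their arrays and dyes and are not independent replicates. In 41 member probes (27.2%) both ETO2 siRNA signals lay below both control signals, and in 51 (33.8%) above, where the shares of all probes were 33.2% and 28%.

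**Figure D1:**
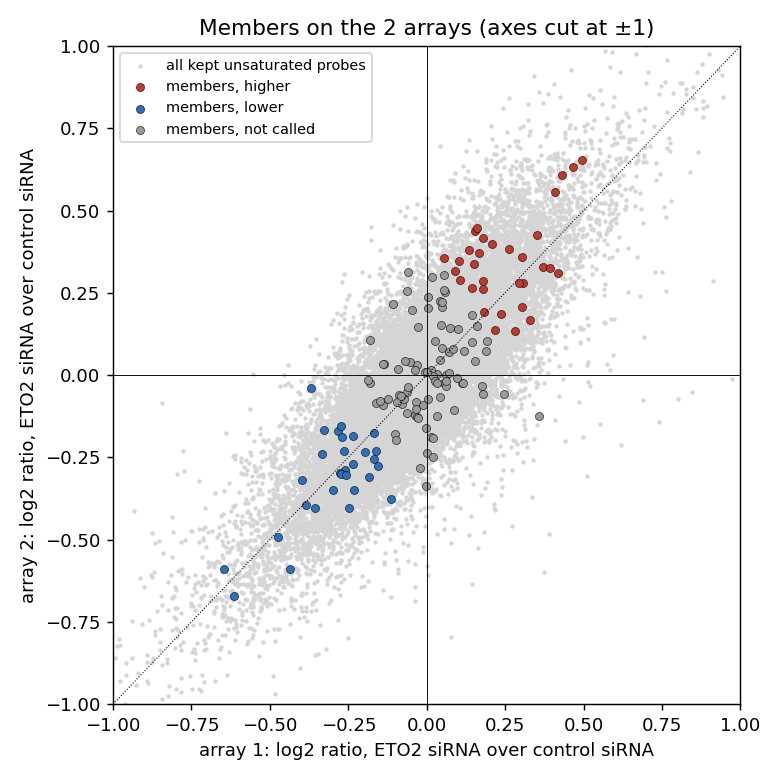
Log2 ratio (ETO2 siRNA over control siRNA) on array 1 (x axis) against array 2 (y axis), for all kept unsaturated probes (light grey) and the 151 member probes (red higher, blue lower, dark grey not past the threshold; adjusted p below 0.05), with axes ending at -1 and 1. The ratio has the same sign on both arrays in 116 of the 151 member probes (76.8%), against 78.7% of all probes.

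These counts depend on the loess step. With each array centred on its median instead, the median ratio of all probes became -0.29 and that of members -0.48, a difference of -0.19, and no member probe was higher while 133 of 151 (88.1%) were lower, where 2.89% of all probes were higher and 63.7% lower. With the background correction at offset 0 in place of 50, members were higher in 13.9% of probes and lower in 13.9%, where 16% of all probes were higher and 17.5% lower. Of all calls on the array 46.1% were in the higher direction after loess and 4.34% after centring, and among member calls the shares were 51.6% and 0%. Member probes were bright, with a median log2 signal of 12.1 against 8.77 for all probes, and 93 of 151 (61.6%) lay in the upper quartile of brightness. The directions below are those after loess, relative to probes of like brightness, and of the named genes higher by their brightest probe Snrpb alone kept a ratio above 0 after centring (0.0090). On the scanner software's own processed signals, background-subtracted and dye-normalized, 5 of 29 named genes past the threshold kept their call (Hnrnph1, Hnrnpk, Snrpb, Prpf6 and Lsm14b), 22 lost it and Srsf2 and Prpf31 changed sign. For these 29 genes, values on processed signals are given below where they differ by over 1.5 times.

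Counted by gene, with the brightest unsaturated probe for each, 16 of 80 genes were higher, 19 lower and 45 not past the threshold, where 17% of 16309 genes on the array were higher and 22.2% lower. Family medians over probes were 0.031 for the Sfrs genes, labelled SR below (8 of 38 probes higher, 6 lower). For hnRNP proteins the median was -0.050 (6 of 34 higher, 10 lower) and for snRNP proteins 0.0093 (5 of 21 higher, 3 lower). Medians were 0.10 for SF3A and SF3B (3 of 13 higher, 1 lower), 0.063 for PRP factors (7 of 26 higher, 3 lower) and 0.0051 for LSm proteins (3 of 19 higher, 7 lower). After centring, each family median was negative, between -0.53 and -0.33. No family was tested as a set.

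**Figure D2:**
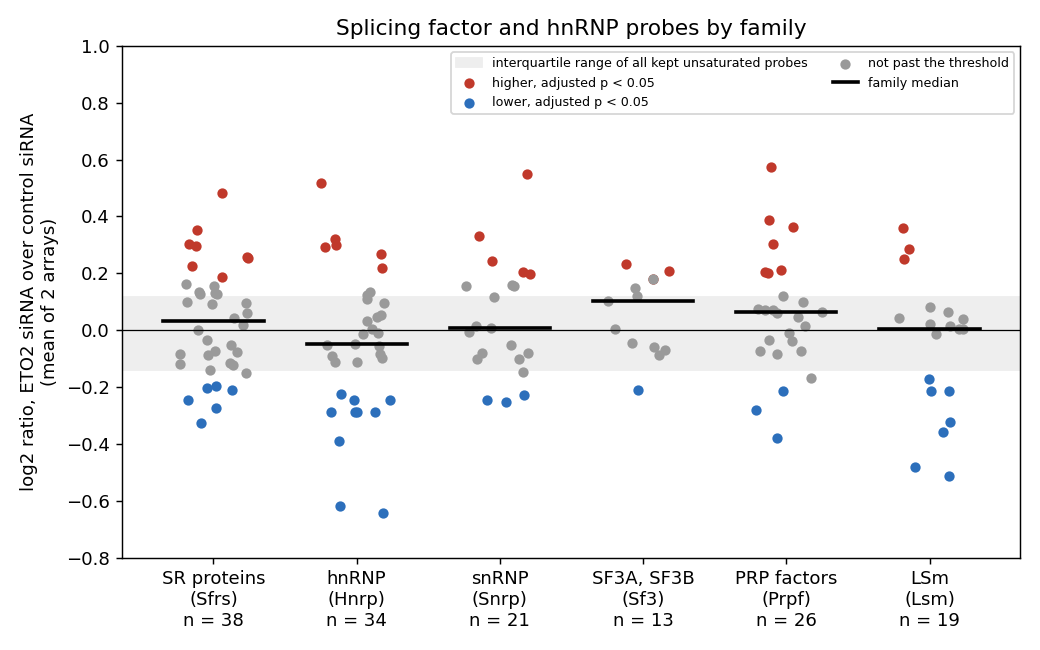
Mean log2 ratio of each unsaturated member probe (y axis) by family (x axis), coloured by call, with the family median as a bar and the interquartile range of all kept unsaturated probes as a grey band. Every family holds probes on both sides of 0, and medians run from -0.050 to 0.10 after loess (after centring each family median is negative).

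Among the hnRNP proteins, 7 of 18 genes fell, 3 rose and 8 did not pass the threshold. Hnrnph1, whose protein binds G-rich stretches and acts on exon choice, had control signals of 25309 and 24574 units and ETO2 siRNA signals of 16525 and 15442. The groups lay far apart on both arrays, and RNA after ETO2 siRNA was at 64.1% of control (log2 ratio -0.64 ± 0.04, SD, n = 2; adjusted p = 1.76e-06), the lowest ratio among members. Hnrnpa2b1, which packages nascent transcripts and can silence exons, read 16273 and 16905 units after control siRNA against 12466 and 12872 after ETO2 siRNA. This put it at 76.4% of control, with almost the same ratio on both arrays (-0.38 and -0.39; adjusted p = 0.000197). On processed signals it was at -0.090 (adjusted p = 0.472).

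Lower too were Hnrnpab, Hnrnph3 and Hnrnpul1, which fall outside the rule for named genes and are given here after their values were seen. The 3 unsaturated probes of Hnrnpab, of very different brightness, gave the same mean log2 ratio of -0.29, with adjusted p between 0.00216 and 0.00245. Hnrnph3, a relative of Hnrnph1, had a log2 ratio of -0.29 (adjusted p = 0.00241). For Hnrnpul1 the brightest probe was at -0.25 (adjusted p = 0.00713), while its other kept probes were at -0.089 and -0.047 and did not pass.

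Hnrnpr, Hnrnpa3 and Hnrnpf were higher by their brightest unsaturated probes after loess. Hnrnpr read 13583 and 12437 units after control siRNA and 15397 and 16610 after ETO2 siRNA (log2 ratio 0.30 ± 0.17; adjusted p = 0.00325), so the groups did not overlap although the arrays differed in size. Hnrnpa3 had a log2 ratio of 0.27 on its brighter unsaturated probe (adjusted p = 0.00576) and of -0.11 on the other, which did not pass. Hnrnpf, close in sequence to Hnrnph1, had one of 0.22 (adjusted p = 0.0129). Hnrnpa1, the best known exon silencer of the family, had unsaturated probes at 0.12, -0.097 and -0.012, none past the threshold.

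Hnrnpk, a C-rich RNA binder, gave opposite readings. Its brighter unsaturated probe read 40810 and 36044 units after control siRNA and 26057 and 23958 after ETO2 siRNA, at 65.1% of control (log2 ratio -0.62 ± 0.04; adjusted p = 2.66e-06). Its dimmer probe read 3033 and 2333 units after control siRNA and 4088 and 3557 after ETO2 siRNA, at 143% of control (log2 ratio 0.52 ± 0.13; adjusted p = 2.44e-05). Neither pair of groups overlapped, and the directions held on each array. On the scanner's processed signals the probes were still apart, at -0.39 (adjusted p = 0.0470) and 0.51 (adjusted p = 0.0310); after median centring they were at -1.25 and 0.029.

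**Figure D3:**
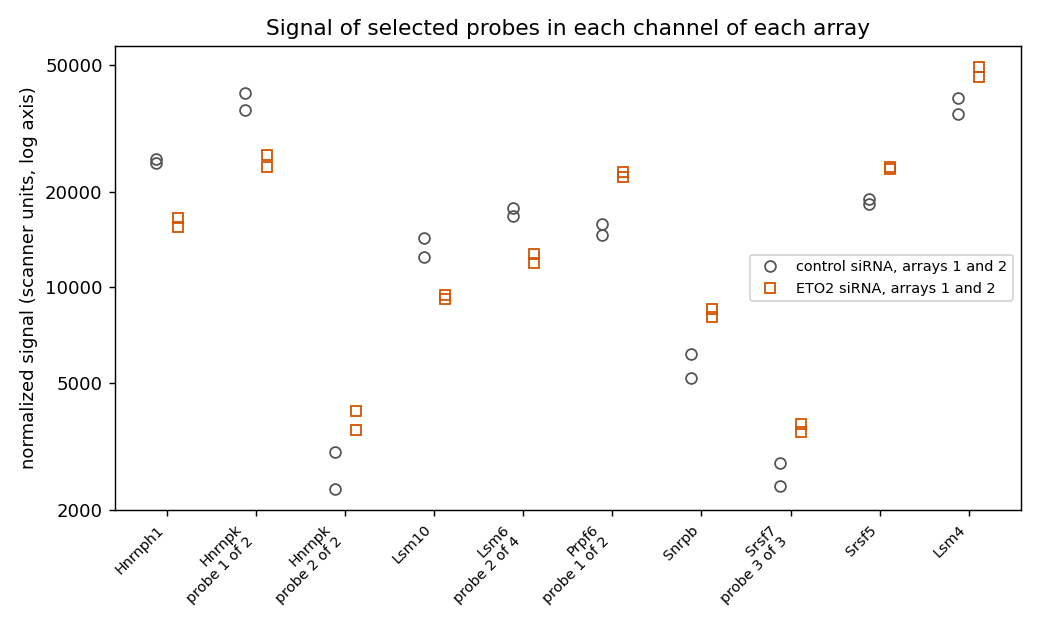
Normalized signal in scanner units (log axis) of 10 probes after control siRNA (circles) and ETO2 siRNA (squares), 1 point for each of the 2 arrays; heights are comparable within a probe, not between probes. In each probe shown the ETO2 siRNA points lie all above or all below the control points, and the Hnrnpk probes go opposite ways (after median centring the dimmer one is at 0.029).

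Saturation hid part of this family. In 10 member probes, 9 from hnRNP genes and 1 from Snrpg, control spots were saturated, on both arrays in 7 probes and on 1 array in 3. Such a control value is a lower bound. In the loess-normalized signals the second Hnrnpa2b1 probe was at least 1.16-fold higher after control siRNA than after ETO2 siRNA (adjusted p = 0.0155). Hnrnpm, whose only kept probe this was, was at least 1.12-fold higher (adjusted p = 0.0512, not past the threshold). Both bounds hold only for this normalization, whose curve was fitted with saturated spots included. For the saturated probes of Hnrnpa1, Hnrnpa3 (2 probes), Hnrnpab, Hnrnpf, Hnrnpk, Hnrnpu and Snrpg no fold can be given. The ETO2 siRNA channel was saturated in none of the member probes.

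The Sfrs names cover SR proteins, which carry arginine and serine repeats and bind exonic enhancers, but also genes with other current names. By gene 3 of 16 rose (Srsf3, Srsf5 and Srsf6), 3 fell (Srsf2, Tra2b and Sugp2) and 10 did not pass. Among the brightest probes of the SR genes, that of Srsf5 had the highest ratio, with signals rising from 18261 and 19002 units to 23632 and 23882. Both ETO2 siRNA values exceeded both control values, at 128% of control (log2 ratio 0.35 ± 0.03; adjusted p = 0.000468). Both probes of Srsf6 were higher, at 0.30 (adjusted p = 0.00378) and 0.26 (adjusted p = 0.00894). Srsf6 was thus the only member gene with several unsaturated probes to be higher on each of them after loess. Its brightest probe was at -0.26 after centring. Srsf3, the smallest of the classic SR proteins, was higher on its brighter probe (0.25; adjusted p = 0.00548) and at 0.060 on a dim one; on processed signals the brighter probe was at 0.11.

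Tra2b, the SR-like activator listed on the array as Sfrs10, fell from 22617 and 18882 units to 18034 and 16836 (log2 ratio -0.25 ± 0.11; adjusted p = 0.00832; -0.12 on processed signals). The lower control value lay only slightly above the higher ETO2 siRNA value. Sugp2, listed as Sfrs14, had probes at -0.20 (adjusted p = 0.0241), -0.32 (adjusted p = 0.00118) and 0.044.

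Srsf2, which binds exonic enhancers and regulates its own transcript by splicing, had 4 probes with no common direction. Its brightest probe was lower, at -0.20 ± 0.23 (adjusted p = 0.0447), with -0.37 on array 1 and -0.038 on array 2. Those next in brightness were higher, at 0.22 (adjusted p = 0.0190) and 0.30 (adjusted p = 0.00465), and the dimmest was at -0.051. The call on the brightest probe was lost or turned under 6 of 8 other settings, with 0.15 on processed signals. Srsf7, named after its values were seen, had probes at -0.074, 0.16 and 0.48; only the dimmest of these passed, rising from 2801 and 2384 units to 3721 and 3505 (adjusted p = 4.05e-05).

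Of the snRNP proteins, 2 of 12 genes rose, 3 fell and 7 did not pass. Snrpb, which encodes the Sm proteins B and B′, rose from 6181 and 5195 units to 8533 and 8058. All ETO2 siRNA values lay above all control values, at 146% of control (log2 ratio 0.55 ± 0.12; adjusted p = 1.33e-05). Among the other Sm ring genes, Snrpd1 was higher (0.33 ± 0.04; adjusted p = 0.000751; 0.17 on processed signals) and Snrpd2 lower (-0.23 ± 0.06; adjusted p = 0.0102). Snrpd3 had probes at -0.0076, 0.21 and 0.015, of which the middle one passed (adjusted p = 0.0204). Snrpe was at 0.0093, Snrpf at -0.25 on its brighter probe (adjusted p = 0.00605; -0.014 on processed signals) and 0.15 on the other, and Snrpg was saturated. The genes of 1 ring thus gave ratios from -0.25 to 0.55. Snrpn, the Snrpb relative best known from neurons, had probes at -0.10 and 0.24 (adjusted p = 0.00978).

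Snrpa, the U1 protein that binds a stem-loop of U1 RNA, fell on its brightest probe from 23491 and 22304 units to 19947 and 18489 (log2 ratio -0.25 ± 0.02; adjusted p = 0.00508; -0.17 on processed signals). Its other probes were at 0.16, 0.16 and 0.20, of which the last passed (adjusted p = 0.0295). Snrnp70 and Snrpc, the further U1 proteins, were at -0.079 and -0.10 on their brightest probes, and the U2 proteins Snrpa1 and Snrpb2 at -0.15 and -0.052. None of these 4 passed.

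SF3A and SF3B hold U2 at the branch point, and 1 of their 8 genes rose by its brightest probe, with none lower. That gene was Sf3b4, at 0.18 ± 0.06 (adjusted p = 0.0374; -0.33 after median centring and 0.039 on processed signals), from control signals of 4185 and 4142 units and ETO2 siRNA signals of 4870 and 4558. Of the SF3A subunits, Sf3a1 had probes at 0.10 and 0.23 (the latter past the threshold, adjusted p = 0.0100), Sf3a2 was at 0.12 and Sf3a3 at 0.0043. Sf3b1, the largest SF3B subunit and a frequent target of mutations in blood disorders with ring sideroblasts, was at 0.18 (adjusted p = 0.0541) and 0.15 (adjusted p = 0.0817). Its ETO2 siRNA signals of 4065 and 4502 units lay above control signals of 3910 and 3643 on the brighter probe, a difference that did not pass. Sf3b2 was at -0.089 and Sf3b5 at -0.068 and -0.046. Sf3b3 had probes at -0.058, -0.21 (adjusted p = 0.0163) and 0.21 (adjusted p = 0.0205).

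PRP factors divided by gene into 4 higher, 3 lower and 6 not past the threshold. Prpf6, which bridges U5 with U4 and U6, had the highest ratio of any member. Its signals rose from 15782 and 14596 units to 22238 and 22979, at 149% of control (log2 ratio 0.57 ± 0.11; adjusted p = 8.28e-06). The array values did not overlap. A second Prpf6 probe, close to background at 81 to 88 units, was at 0.070. After median centring the bright probe was at -0.024, against -0.29 for all probes.

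Prpf8, the scaffold of the catalytic centre, was at 0.30 on 1 probe (adjusted p = 0.00237; 0.16 on processed signals) and at -0.037 on the other. Prpf39, of the U1 snRNP, was at 0.21 on its brighter probe (adjusted p = 0.0156) and at 0.047 on the other, which did not pass. Prpf19, the ubiquitin ligase of the activation complex, was at 0.20 (adjusted p = 0.0305; 0.34 on processed signals, not past the threshold). Prpf40b, whose protein joins U1 to the branch point factors, fell from 427 and 445 units to 334 and 337, at 76.8% of control (log2 ratio -0.38 ± 0.03; adjusted p = 0.000247).

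Prpf31 and Prpf4, proteins of the U4 and U6 particle, each had a bright probe that was lower and a dim one that was higher. For Prpf31 the bright probe went from 19586 and 19079 units to 16405 and 15469 (log2 ratio -0.28 ± 0.03; adjusted p = 0.00266), but on processed signals it was at 0.036 (adjusted p = 0.778). Its dim probe went from 1083 and 863 units to 1382 and 1157 (0.39 ± 0.05; adjusted p = 0.000219). The Prpf4 probes were at -0.21 ± 0.03 (adjusted p = 0.0141; -0.13 on processed signals) and 0.36 ± 0.08 (adjusted p = 0.000404). Prpf3, the partner of Prpf4, was at -0.035.

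LSm proteins counted 3 higher genes, 3 lower and 7 not past the threshold. Lsm6 was lower on all 4 of its probes. On probe 2 it fell from 17760 and 16772 units to 12786 and 11934, at 71.6% of control (log2 ratio -0.48 ± 0.01; adjusted p = 2.78e-05). The others gave -0.32, -0.22 and -0.21, with adjusted p between 0.000897 and 0.0169. Lsm6 and Hnrnpab were the only member genes with several unsaturated probes to be lower on each; Lsm6's brightest probe was at -0.92 after centring and at -0.16 on processed signals.

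Ratios of the other LSm ring genes went both ways, with 1 of the Lsm2 probes described below lower. Lsm4 rose from 34994 and 39348 units to 45911 and 49285 (log2 ratio 0.36 ± 0.05; adjusted p = 0.000411), with no overlap between the groups. Lsm3 was at 0.29 ± 0.01 (adjusted p = 0.00215) and Lsm7 at 0.25 ± 0.11 (adjusted p = 0.00773). Lsm5 was at 0.022 and Lsm8, which marks the nuclear ring on U6, at 0.0051. Lsm1, which takes its place in the cytoplasmic ring that feeds mRNA decapping, was at 0.039. None of these 3 passed.

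Lsm10, which replaces an Sm protein in the U7 snRNP that trims histone pre-mRNA, fell from 12430 and 14289 units to 9181 and 9503. Both ETO2 siRNA values lay below both control values, at 70.1% of control (log2 ratio -0.51 ± 0.11; adjusted p = 2.36e-05; -0.32 on processed signals). Its partner Lsm11 was at 0.015. Lsm14b, a cytoplasmic RNA granule protein, was lower on its brighter probe (-0.36 ± 0.06; adjusted p = 0.000424) and at 0.082 on a dim one.

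Disagreement between probes was common. Of 47 member genes with several unsaturated probes, 7 had probes past the threshold in opposite directions (14.9%), against 390 of 5264 genes on the whole array (7.41%). These were Srsf2, Hnrnpa0, Hnrnpk, Snrpa, Sf3b3, Prpf31 and Prpf4. Hnrnpa0 was at -0.24 (-0.15 on processed signals) and 0.29, and the values of the others are given above. In all 7 the lower probe was brighter than the higher one, as in 251 of the 390 genes (64.4%). On the scanner's processed signals 1 of the 7, Hnrnpk, kept calls in both directions, and 4 genes did on the whole array. With median centring 0 of 47 member genes did, against 3.06% over the array. With offset 0 the share was 2 of 47 member genes (4.26%), against 4.39% over the array. The median range between the probes of a gene was 0.22, and over 102 pairs of unsaturated probes from the same gene the median difference was 0.16, where the median difference between the arrays for 1 probe was 0.097. Whether these probes read different transcripts was not tested.

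**Figure D4:**
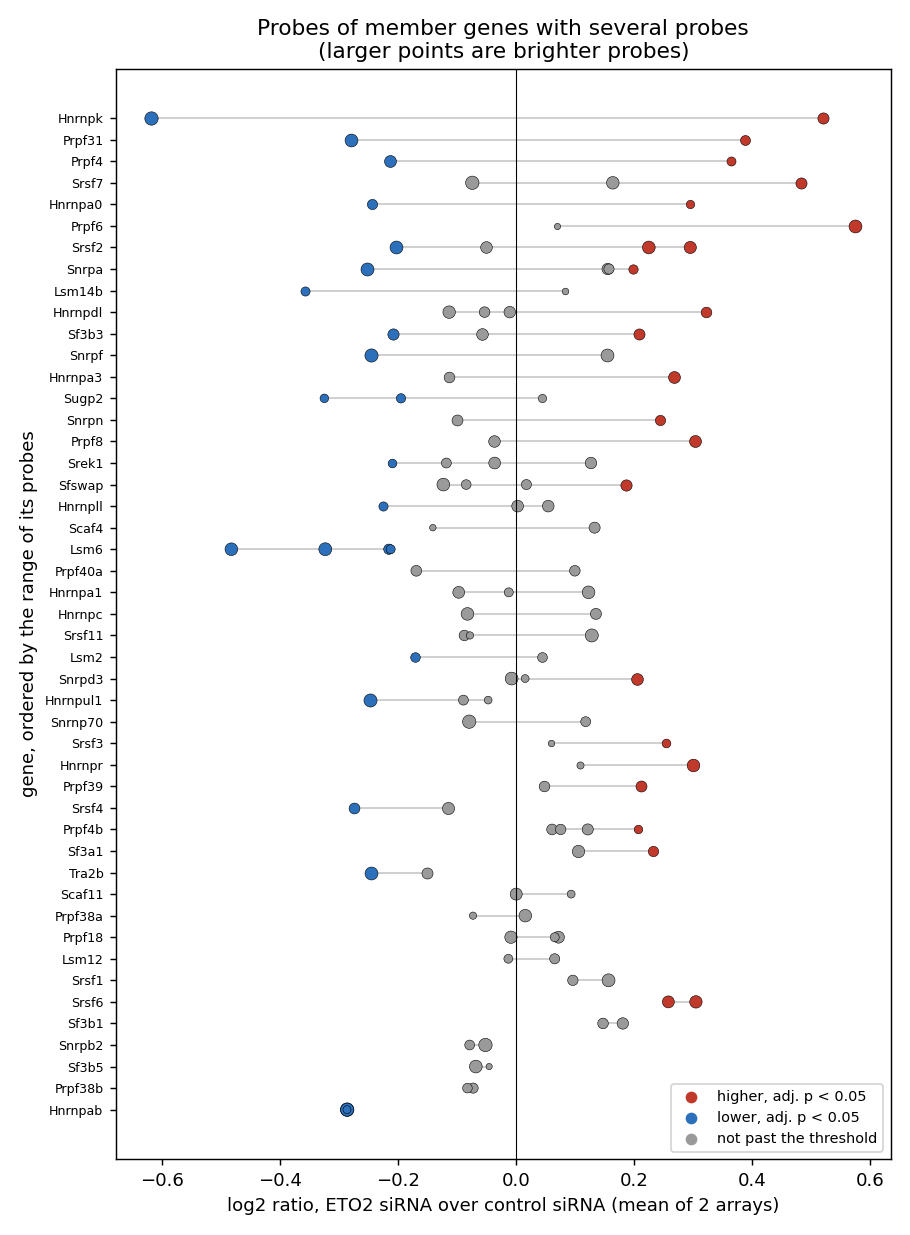
Mean log2 ratio (x axis) of each unsaturated probe of the 47 member genes with several probes, 1 gene per line, ordered by the range of its probes; colours give the call and larger points are brighter probes. Hnrnpk spans -0.62 to 0.52, Lsm6 lies below 0 throughout and the Hnrnpab probes coincide at -0.29.

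Some probes of the same gene overlap in sequence. The probes of Lsm2, which sits in both LSm rings, share a run of 50 bases and differ in start by 10. Their first 30 bases are printed because they are the longest overlap among members, with the shared bases in capitals.
Lsm2, probe with the log2 ratio of 0.043: cttctactccTTTTTCAAGTCTCTTGTGGG
Lsm2, probe with the log2 ratio of -0.17: TTTTTCAAGTCTCTTGTGGGCAAGGATGTA

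The first Lsm2 probe did not pass, and the second was lower (adjusted p = 0.0431), a difference of 0.21 between probes that read nearly the same stretch. The 5 pairs of probes that share a run of 20 bases or more differed by 0.040 to 0.34. The highest value was that of Snrpn, whose probes share 31 bases. The median difference of these 5 pairs was 0.21, against 0.16 over all 102 pairs. No probe shared 20 bases with a probe of another member gene. The share of G and C bases had a median of 41.7% in higher probes, 43.3% in lower probes and 40% in the rest. Its correlation with the ratio over the 151 probes was r = 0.020 and rho = -0.016, as a description.

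Further splicing genes, from 8 lists of factors that the name rule does not reach, were each read from their brightest unsaturated probe. They gave 43 higher and 35 lower of 184 genes measured (23.4% and 19%), where 17% and 22.2% of all genes were. The median log2 ratio of the 184 genes was 0.036. Many of those named here and below had several unsaturated probes. Celf2 had 5 in all, Son and Upf3b 4 each, and Khdrbs1, Mbnl2 and Snrnp200 3 each. Sart1, Snu13, Clk3, Dek, Rbm22, Ncbp2 and Snrnp48 had 2 each. Values of the dimmer probes are not given. Among general RNA-binding regulators 12 of 39 were higher and 6 lower, and the 3 largest differences were all lower: Celf2 (-0.84; adjusted p = 2.99e-07), Khdrbs1 (-0.63; adjusted p = 2.20e-06) and Mbnl2 (-0.58; adjusted p = 6.27e-06). Celf2 and Mbnl2 belong to families known for opposing effects on developmental exons, and Khdrbs1 encodes Sam68, a splicing regulator that binds RNA downstream of signalling. Celf2 went from 3604 and 3600 units after control siRNA to 2188 and 1851 after ETO2 siRNA, well apart on both arrays. The further genes, here and below, were not followed singly under other processing. On processed signals 4 of them were higher and 3 lower, where 4.81% and 5.61% of all probes were. After median centring 0 were higher and 163 lower, where 2.89% and 63.7% of all probes were.

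Of the other U1, U5 and tri-snRNP proteins, 2 of 20 were higher and 7 lower. Sart1, which helps U4, U5 and U6 join the spliceosome, was at -0.58 (adjusted p = 6.30e-06), the U5 helicase Snrnp200 at -0.39 (adjusted p = 0.000269) and Snu13, which binds U4 RNA, at -0.34 (adjusted p = 0.000651).

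SR kinases and SR-related proteins counted 7 higher and 4 lower of 24. Son, a large nuclear speckle protein, was at -0.46 (adjusted p = 7.24e-05) and Srrm2, the other speckle scaffold, at 0.45 (adjusted p = 5.65e-05), while the kinase Clk3, which phosphorylates SR proteins, was at -0.45 (adjusted p = 0.000107). In branch point recognition 4 of 17 were higher and 3 lower, led by Dek at 0.46 (adjusted p = 0.000524), Zrsr1 at -0.38 and Htatsf1 at 0.38. Dek's arrays differed in size, at 0.68 and 0.24.

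Catalytic factors and helicases numbered 6 higher and 5 lower of 31, with Rbm22 at 0.42, Ik at -0.38 and Cwc22 at 0.36. In the exon junction complex and nonsense-mediated decay, which checks spliced mRNAs, 6 of 22 were higher and 5 lower. Its paralogous core genes Magoh (0.39; adjusted p = 0.000207) and Magohb (0.38; adjusted p = 0.000241) both rose, and the decay factor Upf3b fell (-0.52; adjusted p = 0.000432). Upf3b differed between arrays, at -0.25 and -0.80.

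For snRNP assembly the counts were 4 higher and 3 lower of 22. Ncbp2, the cap-binding subunit needed for snRNA export, was at 0.53 (adjusted p = 1.19e-05), the snRNP import factor Snupn at -0.31 (adjusted p = 0.00169) and Smn1, which loads the Sm ring onto snRNA, at 0.30 (adjusted p = 0.00251). In the minor spliceosome, which removes a rare class of introns, 2 of 9 were higher and 2 lower. Snrnp35 was at -0.27, and Zmat5 and Snrnp48 were both at 0.20.

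Promoters of the members were read for motifs of factors at work in these cells, as a description only. RefSeq windows of the 250 bases before a gene's start (build GRCm38.p6) were matched for 72 of 83 symbols, giving 97 windows beside 32851 for all genes. Letters were searched on both strands. AGATAA or TGATAA, bound by GATA factors, stood in 7.22% of member windows and 16.6% of all windows, and CAGNTG, the E-box read by TAL1 partners, in 37.1% and 44.8%. CCNCNCCC, of the kind read by KLF factors, stood in 57.7% and 45.9%, and CCGGAAGT, an ETS site, in 12.4% and 2.88%. The windows of Prpf6 and Hnrnpk, with the highest ratio and the lowest but one, follow 5′ to 3′ on the gene's strand, with matches in capitals. Each holds 1 match, of the KLF kind. Hnrnph1, with the lowest ratio, has 5 windows from different starts, of which 1 holds a GATA match and 3 a KLF match; they are not printed, since a window of an inner start can lie within a transcript.
Prpf6, chr2:181601069-181601318, plus strand: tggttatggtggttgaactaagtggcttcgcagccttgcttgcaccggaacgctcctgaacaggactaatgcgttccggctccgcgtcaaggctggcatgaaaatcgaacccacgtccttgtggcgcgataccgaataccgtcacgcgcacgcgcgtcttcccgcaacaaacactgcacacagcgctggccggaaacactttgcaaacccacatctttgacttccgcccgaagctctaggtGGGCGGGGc
Hnrnpk, chr13:58402118-58402367, minus strand: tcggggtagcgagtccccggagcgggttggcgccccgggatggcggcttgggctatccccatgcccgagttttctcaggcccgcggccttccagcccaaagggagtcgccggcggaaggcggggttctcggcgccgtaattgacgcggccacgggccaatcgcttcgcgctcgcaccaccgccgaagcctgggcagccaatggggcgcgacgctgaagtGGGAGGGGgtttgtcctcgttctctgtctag

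How far single genes rest on the processing was followed in 29 named member genes past the threshold by their brightest probe. In 3 of them, Hnrnph1, Hnrnpk and Lsm14b, the direction and the call held under each of 8 other settings. Prpf6 held in 7 of the 8, all but median centring. These settings are not independent. Counting saturated probes leaves the fit of each gene as it was, and the deposited ratios nearly repeat the processed signals. Median centring moved member ratios down, with 88.1% of probes lower and no probe higher. Named genes lower after loess all stayed lower there, so the tally favours lower genes. On processed signals 5 member probes were higher and 3 lower of 151, with 4.81% and 5.61% of all probes.

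**Figure D5:**
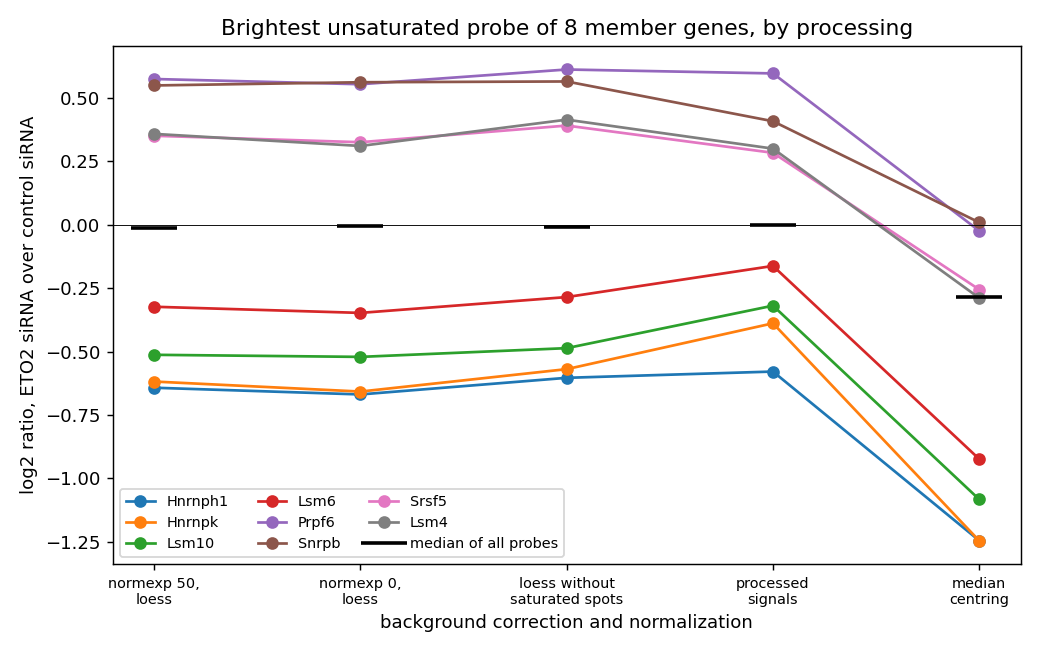
Mean log2 ratio (y axis) of the brightest unsaturated probe of 8 member genes under 5 choices of background correction and normalization (x axis), with the median of all kept unsaturated probes as black bars; the lines join values of 1 gene. Hnrnph1, Hnrnpk, Lsm10 and Lsm6 lie below 0 in each; with median centring all genes shift down and Prpf6, Srsf5 and Lsm4 fall below 0, beside a median of -0.29.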

How the data were processed

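Spots were read with Agilent Feature Extraction 9.1.3.1, per the file headers. The deposited spot means and local backgrounds are linear intensity values without normalization. Per the file headers, the processed intensity values had been background-subtracted and dye-normalized by that software, and the log10 ratio of red over green derives from them. The authors' deposited ratio table holds these log10 ratios to within 0.0041, with a median of 0 per array. No header names a genome build.

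Intensities were corrected by normexp (offset 50) and normalized by loess in limma 3.58.1 (R 4.3.3). The 1639 control features had weight 0 in loess, outlier spots (10 and 4) were dropped, and spots of a probe were averaged. Of 41174 probes, 24434 (59.3%) were kept. Ratios were turned to ETO2 siRNA over control siRNA and tested against 0 by lmFit and eBayes (two-sided), and p-values were adjusted by Benjamini-Hochberg over all kept probes. The fit had 1 residual and 14.4 prior degrees of freedom; an exact sign permutation of 2 arrays cannot go below 0.5. Counts are over unsaturated probes. Simulated arrays of 23994 probes gave 74% recovery at 1.2-fold and 100% at 1.5-fold. They held 50 changed probes per fold, noise of the same spread for every probe and no dye effect on single probes. Recovery in the real arrays may differ. Signals per channel were scaled between arrays (Aquantile) and compare only within a probe. Array gene names were updated from RefSeq: 125 probes by accession, 14 by symbol, 26 by synonym and 1 left as on the array. Named were the 4 member genes per family with the largest change, those against their family's median, those with opposite probes, the saturated ones, and up to 3 per further list. The number of arrays limits the precision. Members and lists were chosen with earlier results of these data known.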

Additional observations from a re-analysis of the deposited data

How the results depend on the processing

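Each array sets both conditions against each other, so the test of the ratio is already paired within the array. There is only 1 group of arrays. With normexp at offset 0, 21 member probes were higher and 21 lower (13.9% each, beside 16% and 17.5% of all probes), medians were 0.052 for SR, -0.038 for hnRNP and -0.0054 for snRNP proteins, and 23 further splicing genes were lower, with a median of 0.040. With median centring, 0 member probes were higher and 133 lower (limma at adjusted p; median -0.48), family medians were -0.45 (SR), -0.53 (hnRNP), -0.49 (snRNP), -0.33 (SF3), -0.39 (PRP) and -0.51 (LSm), and of the further genes 0 were higher and 163 lower (median -0.48). The ratio turned there for 15 named genes past the threshold after loess, after centring or after both: Srsf3 -0.074, Srsf6 -0.26, Srsf5 -0.26, Hnrnpf -0.28, Hnrnpa3 -0.27, Hnrnpr -0.29, Snrpd1 -0.25, Sf3a1 -0.46, Sf3b4 -0.33, Sf3b1 -0.33, Prpf19 -0.25, Prpf39 -0.27, Prpf8 -0.24, Prpf6 -0.024 and Lsm4 -0.29. Sf3a2, past it after neither, went from 0.12 to -0.15. On processed signals 5 member probes were higher and 3 lower (4.81% and 5.61% of all probes), and on the deposited ratios 4 and 3 (4.48% and 5.23%). On both, the member median was 0.050 and medians were 0.024 (hnRNP), 0.021 (snRNP), 0.095 (PRP) and 0.078 (LSm), 4 further genes were higher and 3 lower, and Srsf2 (0.15) and Prpf31 (0.036) turned. The brightest probe of Sf3b3 went from -0.058 after loess to 0.11 on both, past the threshold neither after loess nor on these. With median centring that probe was lower, at -0.58 (limma adjusted p = 4.35e-13). Cbfa2t3 was at -0.37 on both, with adjusted p = 0.0508 and 0.0524. Against a 1.2-fold change, 4 member probes were higher and 4 lower (2.65% each, beside 1.89% and 3% of all probes). With 1 probe per gene 16 were higher and 19 lower, where 17% and 22.2% of all genes were. With saturated spots left out of the loess, an alternative chosen after seeing the data, the medians were 0.028 (members), 0.028 (snRNP) and 0.054 (further genes). Leaving out each array in turn gave a member median of -0.0022 to 0.014, and medians of 0.0068 to 0.025 (SR), -0.061 to -0.044 (hnRNP), -0.0022 to 0.014 (snRNP), 0.034 to 0.10 (SF3), 0.024 to 0.051 (PRP), -0.019 to 0.032 (LSm) and 0.030 to 0.035 (further genes), with Cbfa2t3 at -0.46 to -0.39. The causes of these shifts were not tested. The dim-probe filter and the counting of saturated probes left all counts within 1.5 times. Of the 33 named genes 25 kept their call with offset 0, 16 with median centring, 9 on processed signals and 8 on deposited ratios. Genes past the threshold in neither setting count as kept whatever their sign. Sf3a2 with centring and Sf3b3 on processed signals and deposited ratios are such genes whose sign turned. With 1 array left there is no test.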
